A study of Arabidopsis thaliana with 9 samples.

Results

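The plastid genome of Arabidopsis carries genes for the photosynthetic membrane complexes and for its own transcription, and 46 of these were read by a probe set that the array annotation ties to 1 gene. They were chosen by name: lower-case symbols that start with psa, psb, pet, ndh, rpo or ycf, and rbcL, matK, accD and clpP, which made 46 of the 13356 genes with such a probe set. In the TAIR10.1 gene table all 46 lie on the plastid genome, which holds 69 of the 13356 genes, and those of the ATP synthase and the ribosome and ccsA and cemA fall outside the rule. Of the 49 symbols in that table that the rule matches, ndhB, ycf1 and ycf2 were left out because their probe sets name both copies of the inverted repeat. By class there were 5 genes of photosystem I, 15 of photosystem II, 6 of the cytochrome b6f complex, 10 of the NDH complex, 4 of the plastid-encoded RNA polymerase and 6 single genes.

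Affymetrix ATH1 arrays were run on T87 cells, a wild-type Arabidopsis thaliana suspension line kept in the light, with 3 biological replicates in each of 3 groups. Intact cells were 4-day-old cultures without further treatment. Osmotic cells were such cultures after 3 h in medium with 0.4 M mannitol, which keeps the wall but draws water from the cell. Protoplasts were such cultures after their walls had been digested for 1.5 h in 0.35 M mannitol with the enzymes pectolyase Y-23 (at 0.5%) and cellulase Onozuka RS (at 1%), followed by 3 washes in 0.4 M mannitol and 3 h in medium with 0.4 M mannitol. No mock change of medium is given for the intact cells, so mannitol cannot be told apart from the change of medium and the handling, nor wall loss from digestion and washing.

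Photosystem II splits water, the cytochrome b6f complex passes electrons on, photosystem I reduces ferredoxin, and the NDH complex returns electrons from ferredoxin to the plastoquinone pool. Most of these plastid genes are transcribed by the plastid-encoded polymerase, the product of the rpo genes, together with nuclear sigma factors, and rpoB, accD and ycf2 mainly by a nuclear-encoded phage-type polymerase. Each complex also holds subunits encoded in the nucleus, and plastid genes are mostly transcribed in units of several genes and cut afterwards. Per the labels' protocols the RNA was labelled with a 3-prime kit, which starts from poly(A), whereas plastid messages carry no stable poly(A) tail and short tails mark them for decay. An intensity can therefore follow the amount of a message, its tailing or priming inside it, and these cannot be told apart here. In bulk RNA, fewer plastids per cell and less RNA per plastid also cannot be told apart.

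The values were intensities scaled to 1 trimmed mean on every array and were compared as log2(intensity + 16), which understates the changes of dim genes. Values of different probe sets depend on their probes and were not set against each other as levels. Replicate 3 of the protoplasts was the lowest of its group for 39 of the 46 genes, where 30.5% of all genes had it lowest, and replicate 3 of the osmotic cells for 32, against 45.8% of all genes. Among intact cells it was the lowest for 11 of 46, against 35.7%. The 3-prime over 5-prime ratio of the actin control, a sign of RNA quality, was 2.24 on protoplast replicate 3, between 2.12 and 2.46 on replicates 1 and 2, and between 1.67 and 2.11 on the intact and osmotic arrays. The ubiquitin ratio was between 0.98 and 1.11 on the protoplast arrays and between 1.19 and 1.44 on the others, and the GAPDH ratio lay between 0.93 and 1.2 with overlapping groups. The part of these ratios in the results was not tested. The median log2 difference of all genes was -0.10 in protoplasts against intact cells as deposited, 0.22 after centring each array on the median of its genes and -0.42 after centring on the hybridisation controls. Of the 46 genes 6, namely petD, petN, psaC, ndhE, ndhF and ndhG, were among the dimmest 40% of genes, where signal could not be told from background without detection calls. Of the root hair, xylem and guard cell markers, EXPA7, EXPA18, GUT2 and FMA were measured and none passed in any comparison. Of all genes 7.34% passed in mannitol, 45.0% in protoplasts against intact cells and 39.0% against osmotic cells. The leaf cell markers had 0 measured members.

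Few of the plastid genes passed in any comparison. In mannitol petN fell, and in protoplasts petD rose and rbcL fell against intact cells. Against osmotic cells, petN, rpoB and ndhJ were higher in protoplasts. Thus 1 of 46 genes was called in osmotic against intact cells, where 7.34% of all genes were (limma adjusted p under 0.05). In protoplasts against intact cells the count was 2 of 46, beside 45.0% of all genes, and in protoplasts against osmotic cells it was 3 of 46, beside 39.0%. In a fit without the dimmest 40% of genes, which kept 40 of the 46, the shares of the genes kept were higher. They were 17.6% in mannitol, 69.8% in protoplasts against intact cells and 63.6% against osmotic cells. Members were called in 1 direction as 0 higher and 1 lower in mannitol (background 3.58% and 3.76%), as 1 higher and 1 lower in protoplasts against intact cells (15.8% and 29.2%), and as 3 higher and 0 lower in protoplasts against osmotic cells (13.3% and 25.7%). With the replicate number as a block, 5 of 46 genes were higher in protoplasts than in osmotic cells, psbM and ndhG in addition, beside 14% of all genes. Any pair of these comparisons shares the arrays of 1 group.

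The small number of calls stood beside small differences and standard errors close to those of the array. The median log2 difference of the 46 genes was -0.01 in mannitol, with 22 above and 24 below 0, and 0.21 in protoplasts against intact cells, with 36 above and 10 below, where 44.1% and 55.9% of all genes were. Against osmotic cells it was 0.25, with 42 above and 4 below, beside 41.1% and 58.9%. The value against intact cells was 0.53 after median centring and -0.11 after centring on the hybridisation controls, so its sign changed with the scaling. Relative to the median of all genes it was 0.31, which such centring cannot move, and it was 0.18 without protoplast replicate 1, 0.52 without protoplast replicate 3 and 0.65 without the dimmest 40% of genes. The median standard error was 0.28 among the 46 genes and 0.25 among all genes. A 95% interval that lay wholly inside a 2-fold change was found for 30 of 46 genes in mannitol, against 58.2% of all genes, for 33 of 46 in protoplasts against intact cells, against 35.1%, and for 25 of 46 against osmotic cells, against 38.7%. For the others the interval reached past 2-fold, so such a change was either estimated or could not be told with 3 arrays a group. A difference of at least 2-fold was estimated for 1, 1 and 2 of the 46 genes in these comparisons, where 7.47%, 33.3% and 27.4% of all genes had one. At an unadjusted p under 0.05 there were 2, 4 and 5 genes, beside 22.3%, 50.0% and 45.9% of all genes. The 3 arrays of the groups did not overlap for 1 higher and 5 lower genes in mannitol (14.7% and 16.2% of all genes), for 7 higher and 1 lower when protoplasts were set against intact cells (19.6% and 33.0%), and for 6 and 0 against osmotic cells (16.9% and 30.7%).

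**Figure D1:**
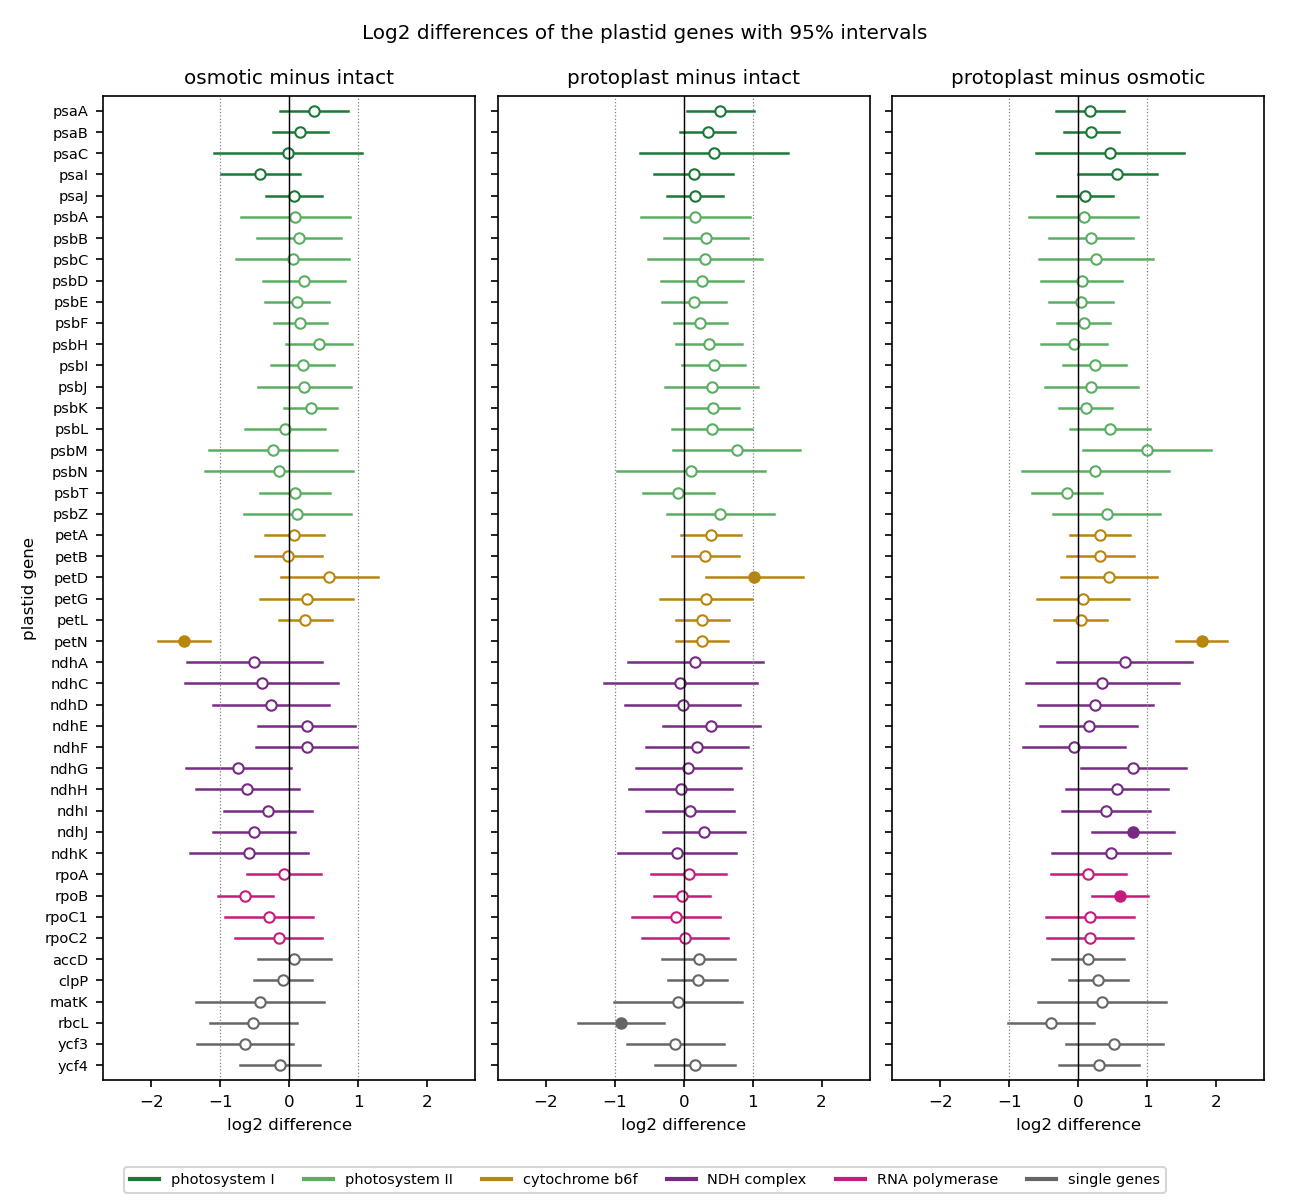
Log2 difference of each of the 46 plastid genes (rows, coloured by class) in the 3 comparisons, as points with 95% intervals from the limma fit on 3 arrays a group. Filled points passed at an adjusted p under 0.05, and dotted lines mark 2-fold. The filled points are petN in mannitol, petD and rbcL in protoplasts against intact cells, and petN, rpoB and ndhJ in protoplasts against osmotic cells, and most intervals cross 0.

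None of the 5 photosystem I genes passed in any of the 3 comparisons. Of all genes 7.34% passed in mannitol, 45.0% in protoplasts against intact cells and 39.0% against osmotic cells. Their log2 differences lay between -0.42 and 0.36 in mannitol and between 0.15 and 0.53 in protoplasts against intact cells. psaA and psaB encode the large proteins that hold the reaction centre. psaA read 184, 179.6 and 189 in the intact, 271, 236 and 219 in the osmotic and 367, 279 and 199 in the protoplast arrays. Every osmotic and every protoplast array thus lay above the 3 intact arrays, though protoplast replicate 3 only by a little. The difference was 0.53 ± 0.22 (SE) in protoplasts and missed the threshold (limma adjusted p = 0.0749), while without protoplast replicate 3 it was 0.75 and passed (limma adjusted p = 0.00856). The intensities of psaB were 7650.1, 5951 and 7094 in intact cells, 7329, 8454 and 7318 in osmotic cells and 9214, 9659 and 7536 in protoplasts. The groups of psaB overlapped. Its difference in protoplasts was 0.35 ± 0.18 (SE, limma adjusted p = 0.146).

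psaC, which encodes the protein that holds the terminal iron-sulphur clusters, lies in a unit with NDH genes. For psaC the arrays gave 15.6, 24 and 22 in intact cells, 9.02, 61.3 and 8.07 in osmotic cells and 17.7, 25 and 71.4 in protoplasts. It was dim and scattered, with its highest values on osmotic replicate 2 and protoplast replicate 3. In intact cells psaI had intensities of 1706, 1089 and 1706, in osmotic cells 1128, 949 and 1219.6, and in protoplasts 1912, 1895 and 1188. psaI, a gene of a small membrane subunit, had its 3 osmotic values close together and the groups overlapped, with -0.42 ± 0.26 in mannitol (SE, limma adjusted p = 0.381). psaJ read 1845, 1628 and 2128 in the intact, 1792, 2258 and 1826 in the osmotic and 2277, 1874 and 2116 in the protoplast arrays. The 3 groups of psaJ, another small membrane subunit gene, overlapped.

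None of the 15 photosystem II genes passed in any of the 3 comparisons, beside 7.34%, 45.0% and 39.0% of all genes. With the replicate number as a block, psbM did pass against osmotic cells. The lowest limma adjusted p of the 15 genes was 0.283 in mannitol and 0.0739 in protoplasts against intact cells. Their median log2 difference was 0.12 in mannitol, with 12 of 15 above 0, and 0.33 in protoplasts against intact cells, with 14 of 15 above 0, where 50.6% and 44.1% of all genes lay above 0. Leaving out single arrays moved these medians, to 0.01 in mannitol and 0.16 in protoplasts without intact replicate 2, and to 0.25 in mannitol without osmotic replicate 3 and 0.47 in protoplasts without protoplast replicate 3. psbM, a gene of a small subunit at the dimer interface, had the highest estimate in protoplasts. The intensities of psbM were 3762, 5187 and 4095 in intact cells, 3841, 4859 and 2622 in osmotic cells and 11929, 9108 and 3637 in protoplasts. Protoplast replicates 1 and 2 lay far above every other array, and replicate 3 lay among the osmotic and intact values. The difference was 0.77 ± 0.41 against intact cells (SE, limma adjusted p = 0.171), and without protoplast replicate 3 it was 1.27 (limma adjusted p = 0.00637). Against osmotic cells it was 1.00 ± 0.41 (SE), with a limma adjusted p of 0.0852, and of 0.0368 with the replicate number as a block. psbZ, a gene of the photosystem II core edge, was alike. For psbZ the arrays gave 4867, 3424 and 3824 in intact cells, 5398, 5321 and 2840.4 in osmotic cells and 7245, 7484 and 3559 in protoplasts. Its protoplast replicates 1 and 2 were the highest of the 9 arrays and replicate 3 lay below 2 of the 3 intact arrays, so the difference was 0.53 ± 0.35 (SE, limma adjusted p = 0.26), and 0.88 without protoplast replicate 3 (limma adjusted p = 0.0438).

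Other photosystem II genes had tighter replicates. In intact cells psbK had intensities of 5187, 4793 and 4557, in osmotic cells 6095, 6959 and 5107, and in protoplasts 6943, 6518 and 6024. psbK encodes a small subunit beside CP43, and each protoplast array lay above the 3 intact arrays. It had 0.42 ± 0.17 (SE) in protoplasts and missed the threshold (limma adjusted p = 0.0739). Under some alternatives psbK passed, with median centring (limma adjusted p = 0.00608), a pseudocount of 64 (0.0246) and an intensity trend (0.0294). The same held with array weights (0.0354) and without the dimmest 40% of genes (0.0419). psbI, its partner in the transcription unit, had 0.44 ± 0.20 in protoplasts (SE, limma adjusted p = 0.114) and also did not overlap with intact cells. psbT read 154, 101 and 150 in the intact, 125, 144 and 158 in the osmotic and 165, 121 and 98.1 in the protoplast arrays. psbT, a small subunit gene of the psbB unit, was the photosystem II gene with an estimate below 0 in protoplasts, -0.08 ± 0.23 (SE), with overlapping groups. The intensities of psbN were 385, 303 and 192 in intact cells, 348, 214 and 219 in osmotic cells and 446, 497 and 123 in protoplasts. psbN, read from the strand opposite to its neighbours and needed for assembly, had protoplast values that ran from the lowest to the highest of the 9 arrays.

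The reaction centre and antenna genes of photosystem II did not pass either. psbA, the gene of the D1 protein that is replaced after light damage, had 0.08 ± 0.35 in mannitol and 0.17 ± 0.35 in protoplasts against intact cells (SE). psbD, the gene of the D2 protein, had 0.26 ± 0.26 and psbC and psbB, the genes of the core antenna proteins CP43 and CP47, 0.31 ± 0.37 and 0.33 ± 0.27 in protoplasts against intact cells (SE). psbE and psbF, the genes of cytochrome b559, had 0.15 ± 0.21 and 0.24 ± 0.17, and their unit neighbours psbL and psbJ 0.41 ± 0.26 and 0.41 ± 0.30 (SE). psbH, whose small phosphoprotein takes part in assembly, had 0.43 ± 0.21 in mannitol and 0.36 ± 0.21 in protoplasts (SE, limma adjusted p = 0.283 and 0.208). The 4 genes of the psbE unit thus lay between 0.15 and 0.41 in protoplasts, and the 95% interval of each included 0.

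**Figure D2:**
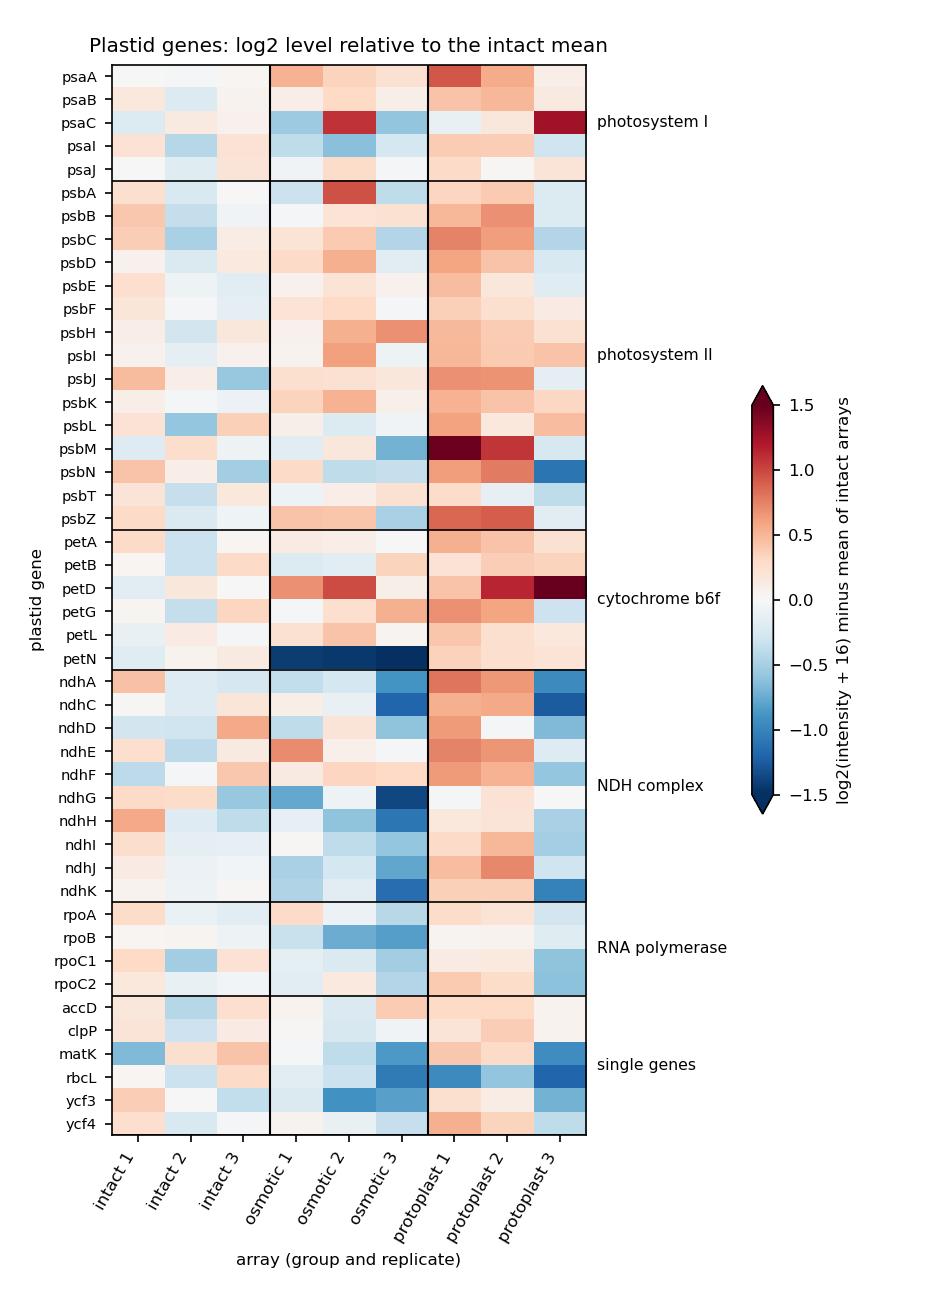
Level of the 46 plastid genes (rows, by class) on the 9 arrays (columns), as log2(intensity + 16) minus the gene's mean over the 3 intact arrays, with colours from -1.5 (blue) to 1.5 (red) and values beyond drawn as the end colours. petN is dark blue on the 3 osmotic arrays alone, most NDH genes and the polymerase genes are blue on osmotic and protoplast replicate 3 (ndhE, ndhF and ndhG each depart on 1 of them), and most photosystem genes are pale red on protoplast replicates 1 and 2.

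Among the cytochrome b6f genes, petN stood out in mannitol. petN encodes a very small membrane subunit that the complex needs for its assembly. For petN the arrays gave 45.2, 56.2 and 60.1 in intact cells, 9.88, 9.54 and 5.36 in osmotic cells and 72.6, 66.7 and 64.1 in protoplasts. All 3 osmotic values lay far below the other 6, and the intact and protoplast values were close, the protoplast ones a little higher without overlap. petN fell in mannitol by 1.52 on the log2 scale, with an SE of 0.17 (limma adjusted p = 0.00125), and was higher in protoplasts than in osmotic cells by 1.79 ± 0.17 (SE, limma adjusted p = 6.0e-05). Protoplasts, which had spent the same 3 h in mannitol medium, had 0.27 ± 0.17 against intact cells (SE, limma adjusted p = 0.235). With pseudocounts of 1 and 64 in place of 16 the mannitol value was -2.60 and -0.70, so its size depends on this choice. petN was called in mannitol in all of the 21 refits that held it, with limma adjusted p between 2.46e-04 and 0.00932. Some of these refits could not alter its difference, such as those without a protoplast array. But petN ranked in the 14 to 15.9 percentile of genes on the osmotic arrays, where signal cannot be told from background.

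The neighbours of petN on the plastid genome are rpoB and psbM. In mannitol rpoB had -0.64 ± 0.18 and psbM -0.23 ± 0.41 (SE, limma adjusted p = 0.0659 and 0.814). Neither passed there, though rpoB did under some alternatives.

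The other cytochrome b6f genes were higher in protoplasts by estimate, and petD passed. petD encodes subunit IV, and its probe set was dim. In intact cells petD had intensities of 15.7, 24.2 and 19.6, in osmotic cells 41.6, 54.2 and 21.8, and in protoplasts 32, 62.6 and 86. Each protoplast value lay above the intact ones, with the lowest on replicate 1 and the highest on replicate 3. petD rose by 1.03 ± 0.31 in protoplasts (SE, limma adjusted p = 0.0219). That call was lost without intact replicate 1 (limma adjusted p = 0.0725), intact replicate 3 (0.0538), protoplast replicate 2 (0.0662) or protoplast replicate 3 (0.0726), without replicate 3 of every group (0.0674), and after centring on the hybridisation controls (0.101).

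petB, the cytochrome b6 gene that lies beside petD in the unit psbB-psbT-psbH-petB-petD, had no such difference. petB read 7677, 6025 and 9200.2 in the intact, 6549, 6662 and 9505 in the osmotic and 8772, 9741 and 9493 in the protoplast arrays. Its groups overlapped and it had 0.31 ± 0.22 in protoplasts (SE). The 5 genes of the unit had log2 differences from -0.08 for psbT to 1.03 for petD in protoplasts against intact cells. The intensities of petA were 2717, 1773 and 2265 in intact cells, 2422, 2375 and 2215 in osmotic cells and 3230.4, 2979 and 2597 in protoplasts. petA, the cytochrome f gene, had protoplast replicates 1 and 2 above every intact value and replicate 3 below the highest of them, with 0.40 ± 0.19 (SE, limma adjusted p = 0.131). For petL the arrays gave 89.9, 109 and 96.5 in intact cells, 118, 138 and 102 in osmotic cells and 136, 118 and 112 in protoplasts. For petL, a small subunit gene, each protoplast value lay above the intact ones, with 0.27 ± 0.17 (SE, limma adjusted p = 0.246), and petG of the same unit had 0.32 ± 0.30 (SE).

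**Figure D3:**
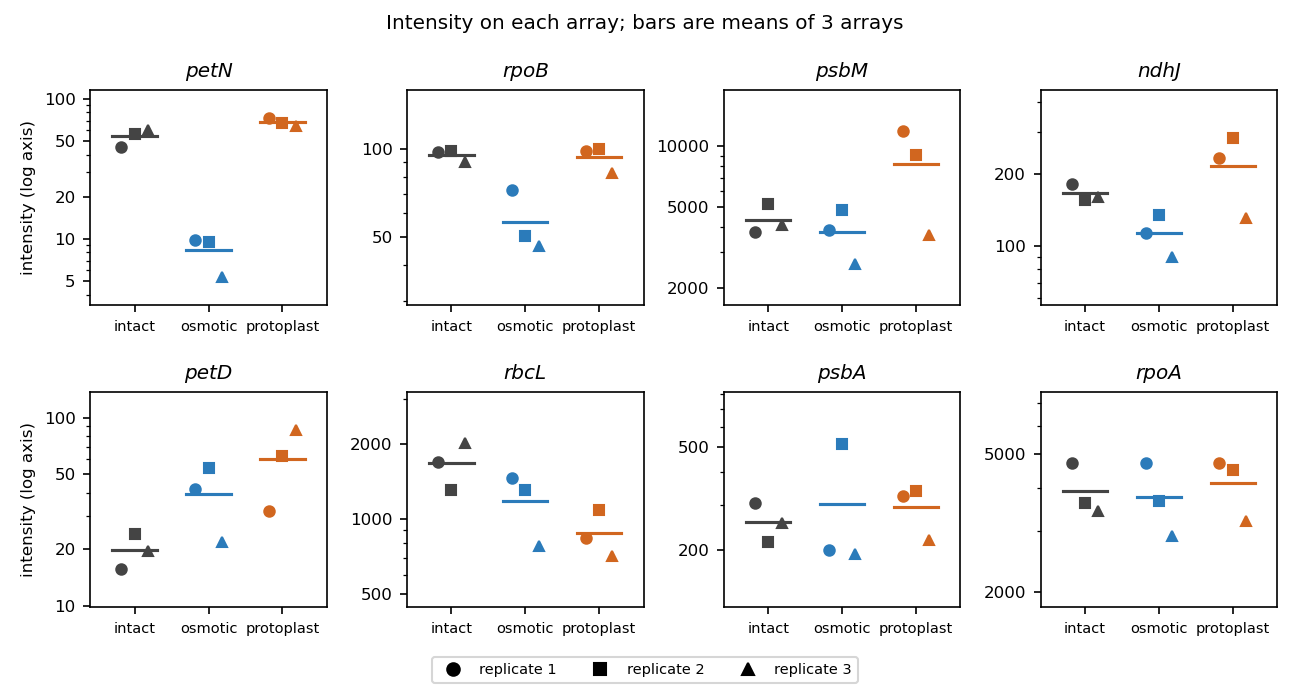
Intensity (log axis) of 8 plastid genes on each array, by group, with the replicate number as the symbol and a bar at the mean of 3 arrays. petN is below 10 on the 3 osmotic arrays and above 45 on the other 6, and rbcL is lower on each protoplast than on each intact array. Replicate 3 is the lowest protoplast value for every gene drawn except petD.

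The NDH genes were lower in mannitol by estimate. None of the 10 passed there or in protoplasts against intact cells, beside 7.34% and 45.0% of all genes. In mannitol 8 of 10 lay below 0, where 49.4% of all genes did, with a median log2 difference of -0.46 and a range from -0.74 to 0.25. Without osmotic replicate 3 the median was -0.24. When protoplasts were set against intact cells it was 0.08, with -0.09 without protoplast replicate 1 and 0.47 without protoplast replicate 3. The osmotic mean was the lowest of the 3 group means for 8 of the 10, where 19.6% of all genes had it lowest. Of the whole set of 46 this held for 23, with 4 of 4 polymerase, 2 of 5 photosystem I, 3 of 15 photosystem II and 2 of 6 cytochrome b6f genes. Outside the rule it held for 9 of 15 plastid ribosomal protein genes, 4 of 6 plastid ATP synthase genes and 10 of 15 mitochondrial genes.

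The unit ndhC-ndhK-ndhJ encodes subunits of the membrane and connecting arms. In intact cells ndhJ had intensities of 181, 155 and 161, in osmotic cells 113, 135 and 89.9, and in protoplasts 233, 282 and 131. Each osmotic value of ndhJ lay below the intact ones, and protoplast replicates 1 and 2 were the highest of the 9 arrays. It had -0.51 ± 0.27 in mannitol (SE, limma adjusted p = 0.305) and was higher in protoplasts than in osmotic cells by 0.80 ± 0.27 (SE, limma adjusted p = 0.0378). That call was lost without intact replicate 1, 2 or 3 (limma adjusted p = 0.054, 0.0554 and 0.052), without osmotic replicate 1 or 3 (0.0805 and 0.115), without protoplast replicate 1 or 2 (0.115 and 0.135), with only the 2 groups in the fit (0.0782), with a pseudocount of 1 (0.0567) and after centring on the hybridisation controls (0.117).

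The other genes of this unit scattered more. ndhK read 182, 164 and 177 in the intact, 123, 154 and 70.1 in the osmotic and 227, 227 and 78.3 in the protoplast arrays. The intensities of ndhC were 2619, 2268 and 2939.9 in intact cells, 2768, 2402 and 1129 in osmotic cells and 3770.2, 3850.1 and 1082 in protoplasts. Both had replicate 3 as the lowest value by far in the osmotic and in the protoplast group, and osmotic values of ndhK did not overlap with intact ones. ndhC had -0.05 ± 0.50 in protoplasts against intact cells (SE), and with replicate 3 of every group left out it had 0.64 (limma adjusted p = 0.0187).

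The long unit ndhH-ndhA-ndhI-ndhG-ndhE-psaC-ndhD showed the same scatter. For ndhI the arrays gave 4560.0, 3423 and 3465 in intact cells, 3838, 2901 and 2533 in osmotic cells and 4625, 5333 and 2652 in protoplasts. ndhI, whose product carries iron-sulphur clusters, had its lowest osmotic and protoplast values on replicate 3. In intact cells ndhE had intensities of 47.5, 24.4 and 42.5, in osmotic cells 70.8, 39.9 and 36.2, and in protoplasts 72.9, 68 and 30.4. ndhE was dim, its groups overlapped, and it had 0.25 ± 0.31 in mannitol and 0.40 ± 0.31 in protoplasts (SE). In mannitol ndhG had -0.74 ± 0.34, ndhH -0.61 ± 0.33, ndhA -0.51 ± 0.44 and ndhD -0.26 ± 0.37 (SE, limma adjusted p at least 0.24), while psaC of the same unit had -0.02 ± 0.48 (SE). ndhG was 0.80 ± 0.34 (SE) in protoplasts against osmotic cells, with a limma adjusted p of 0.0918, and of 0.031 with the replicate number as a block. ndhF, which is transcribed on its own and encodes a large membrane subunit, was too dim to read and ran from 0.751 to 22.9 over the 9 arrays.

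None of the 4 genes of the plastid-encoded RNA polymerase passed in protoplasts against intact cells, beside 45.0% of all genes. Their log2 differences lay between -0.11 and 0.07, and each 95% interval lay inside a 2-fold change. In mannitol all 4 estimates were below 0, where 49.4% of all genes were. The median was -0.22, with -0.09 without osmotic replicate 3 and -0.38 without intact replicate 2. rpoB encodes the beta subunit. rpoB read 97.2, 98.4 and 89.7 in the intact, 72, 50.2 and 46.6 in the osmotic and 98.2, 99.4 and 82.2 in the protoplast arrays. The 3 osmotic values lay below all 6 others, which were close to each other. rpoB had -0.64 ± 0.18 in mannitol and missed the threshold (SE, limma adjusted p = 0.0659). It passed there without the dimmest 40% of genes (limma adjusted p = 0.0322), with a pseudocount of 64 (0.0439) and with array weights (0.0175). In protoplasts rpoB was higher than in osmotic cells by 0.61 ± 0.18 (SE, limma adjusted p = 0.0228). That call was lost without osmotic replicate 2 or 3 (limma adjusted p = 0.0791 and 0.0703), without protoplast replicate 1 or 2 (0.0685 and 0.0723), with only the 2 groups in the fit (0.0542) and after centring on the hybridisation controls (0.131).

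The genes that follow rpoB in its unit encode the beta-prime and beta-double-prime subunits, and their groups overlapped. The intensities of rpoC1 were 1965, 1099.6 and 1858 in intact cells, 1445, 1369.5 and 1107 in osmotic cells and 1733, 1755 and 1040.0 in protoplasts. For rpoC2 the arrays gave 488, 400.0 and 422 in intact cells, 384, 482 and 317 in osmotic cells and 575, 529 and 278 in protoplasts. In mannitol they had -0.29 ± 0.28 and -0.16 ± 0.28 (SE). rpoA, the alpha subunit gene, lies in another unit with ribosomal protein genes. In intact cells rpoA had intensities of 4709.8, 3611 and 3437, in osmotic cells 4725, 3651 and 2898, and in protoplasts 4694, 4490.2 and 3214. Its groups overlapped, and the difference was -0.07 ± 0.24 in mannitol and 0.07 ± 0.24 in protoplasts (SE).

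Among the single genes, rbcL fell in protoplasts. rbcL encodes the large subunit of Rubisco, the enzyme that fixes carbon dioxide. rbcL read 1684, 1311 and 2014 in the intact, 1456, 1307 and 781 in the osmotic and 837, 1088 and 712 in the protoplast arrays. Each protoplast value lay below each intact value, while the osmotic values overlapped with both. rbcL changed by -0.91 ± 0.28 in protoplasts (SE, limma adjusted p = 0.0229), and had -0.52 ± 0.28 in mannitol (SE, limma adjusted p = 0.318). The call was lost without intact replicate 1 (limma adjusted p = 0.0627), intact replicate 3 (0.0816), protoplast replicate 1 (0.0627) or protoplast replicate 3 (0.0723), without replicate 3 of every group (0.0509) and after median centring (0.0953). Its estimate was below 0 in all of these. Of the 46 genes it had the lowest estimate in protoplasts against intact cells, and its neighbours on the plastid genome, atpB of the ATP synthase and accD, had 0.09 ± 0.16 and 0.22 ± 0.23 (SE).

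The remaining single genes did not pass. The intensities of accD were 539.9, 352 and 572 in intact cells, 495, 409 and 629 in osmotic cells and 590.3, 592 and 494 in protoplasts. For clpP the arrays gave 8363, 5923 and 7974 in intact cells, 7455, 6225 and 7055 in osmotic cells and 8395, 9474 and 7603 in protoplasts. accD, the gene of a subunit of the acetyl-CoA carboxylase of fatty acid synthesis, and clpP, the gene of the catalytic subunit of the plastid Clp protease, had overlapping groups, with 0.22 ± 0.23 and 0.20 ± 0.19 in protoplasts against intact cells (SE). In intact cells matK had intensities of 3706, 6921 and 7904, in osmotic cells 5781, 4517 and 3224, and in protoplasts 7778, 7152 and 3068. matK, the gene of a maturase that helps to splice plastid introns, had overlapping groups, with a wide spread in each. ycf3 and ycf4 encode assembly factors of photosystem I. ycf3 read 2051, 1583 and 1216 in the intact, 1361, 832 and 892 in the osmotic and 1863, 1704 and 965 in the protoplast arrays. The intensities of ycf4 were 288, 201 and 236 in intact cells, 249.6, 219.8 and 184 in osmotic cells and 354, 305 and 179.9 in protoplasts. Both overlapped between groups, with -0.65 ± 0.31 and -0.13 ± 0.26 in mannitol and -0.12 ± 0.31 and 0.16 ± 0.26 in protoplasts (SE).

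Set side by side, the classes differed in mannitol by estimate. The median log2 level relative to intact cells was 0.08, 0.30 and -0.06 on osmotic replicates 1, 2 and 3 for photosystem II, and -0.25, -0.13 and -0.83 for the NDH genes, which thus lay lower on each of the 3 arrays. The polymerase genes had -0.15, -0.15 and -0.48. Photosystem I had -0.05, 0.30 and -0.02 and cytochrome b6f 0.05, 0.17 and 0.06. The intact arrays scattered too, with 0.19, -0.17 and -0.01 for the NDH genes and 0.22, -0.11 and -0.06 for the polymerase genes. The NDH median on osmotic replicate 2 thus lay within the intact range. On protoplast replicates 1 and 2 the NDH genes were level with photosystem II, at 0.50 and 0.51 against 0.52 and 0.43, and on protoplast replicate 3 they were at -0.55 against -0.18. The polymerase genes were at 0.20, 0.18 and -0.44 on the protoplast arrays. These medians rest on few genes and differences between classes were not tested.

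Nuclear genes that serve the same complexes had other values in protoplasts. PSAN and PSAE-1 of photosystem I changed by -2.96 ± 0.25 and -1.12 ± 0.19, and PSBW of photosystem II by -1.47 ± 0.19 (SE, limma adjusted p = 1.6e-05, 8.6e-04 and 1.9e-04). All 7 measured nuclear photosystem genes, among them the antenna genes LHCB4.1, LHCB4.2 and LHCB4.3, were lower in protoplasts than in intact cells, with a median of -1.12, beside 29.2% of all genes. Of 5 nuclear genes tied to the NDH complex, 4 were lower, beside 29.2% of all genes. They were NdhN with -1.72 ± 0.35 and the accessory gene PIFI with -1.40 ± 0.33 (SE, limma adjusted p = 0.00282 and 0.00574), NdhL and the editing factor gene CRR21. NdhS had -0.08 ± 0.30 (SE, limma adjusted p = 0.869). The 10 plastid NDH genes had no call in that comparison, beside 45.0% of all genes, and their median of 0.08 stood against -1.09 for the 5 nuclear ones. Because the labelling starts from poly(A), plastid and nuclear values are unlike measures. In mannitol the 5 nuclear NDH genes lay between 0.04 and 0.83 and none passed, beside 7.34% of all genes. The difference between the genomes was not tested. The lists drawn up for sigma factors, polymerase-associated proteins and plastid RNA processing factors, which did not hold CRR21, had 0 measured members.

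**Figure D4:**
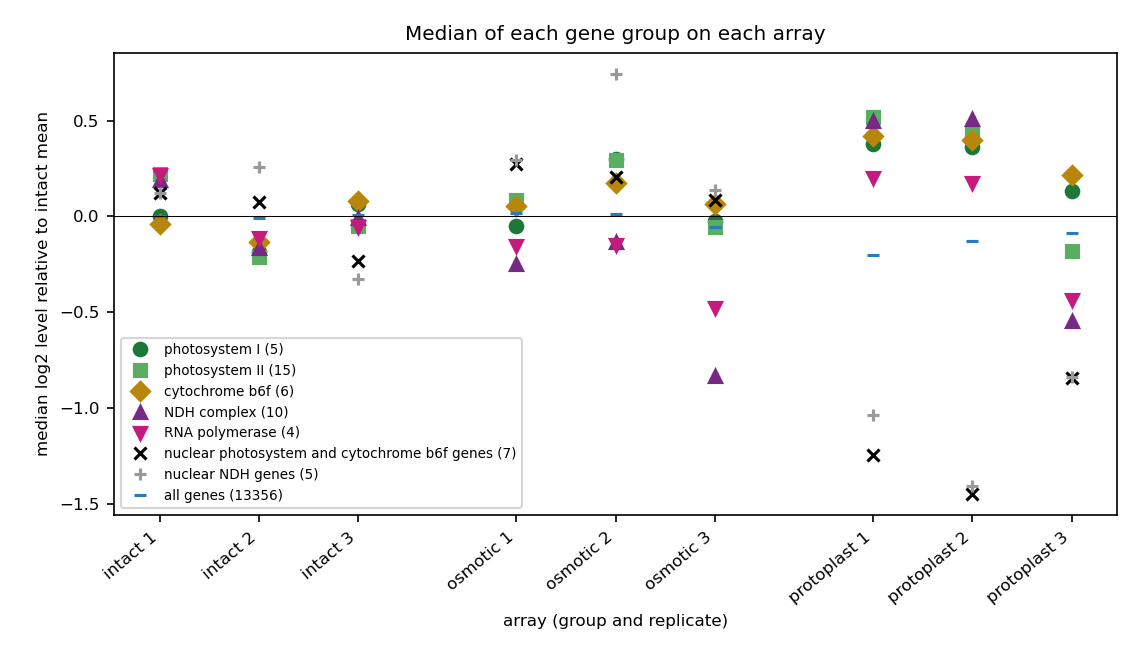
Median of each gene group on each array, as log2(intensity + 16) minus the gene's mean over intact arrays, with the number of genes in brackets. On the protoplast arrays the plastid classes lie between -0.55 and 0.52 and the nuclear groups between -1.45 and -0.84. On the osmotic arrays the NDH and polymerase genes lie below the photosystem classes.

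Other plastid genes outside the rule were near these values. The 6 ATP synthase genes had a median of -0.05 in mannitol and 0.23 in protoplasts against intact cells. None of the 6 passed, beside 7.34% and 45.0% of all genes. Of 15 plastid ribosomal protein genes 1 was called higher in protoplasts against intact cells, beside 15.8% of all genes. This was rpl32, with 0.42 ± 0.15 (SE, limma adjusted p = 0.0489), close to the threshold. The medians of the 15 genes were -0.11 in mannitol and 0.26 in protoplasts. rps16 had -1.04 ± 0.33 in mannitol and -0.80 ± 0.33 in protoplasts and did not pass (SE, limma adjusted p = 0.0934 and 0.0766).

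The deviation of protoplast replicate 3 differed in size between the genes. Its log2 level minus the mean of replicates 1 and 2 had a median of -0.65 over the 46 genes and 0.11 over all genes. By class the median was -0.94 for NDH, -0.62 for polymerase, -0.56 for photosystem II, -0.32 for photosystem I and -0.13 for cytochrome b6f genes. The lowest values were those of psbN and ndhC, both -1.80, ndhA with -1.68, psbM with -1.52 and ndhK with -1.37, and the highest were those of the dim genes psaC with 1.23 and petD with 0.73. On osmotic replicate 3 the same measure had a median of -0.33 over the 46 genes, -0.54 for NDH genes and -0.08 over all genes. Without protoplast replicate 3, ndhJ, psaA, psbM and psbZ were higher in protoplasts than in intact cells and none was lower, where 15.9% of all genes were higher, so 4 of 46 was below that share. Against osmotic cells 9 were then higher, namely ndhA, ndhI, ndhJ, ndhK, petN, psaI, psbM, rpoB and ycf3, beside 14% of all genes. Without replicate 3 of every group 8 of 46 were higher than in intact cells, namely ndhC, ndhF, ndhJ, petG, psaA, psbD, psbM and psbZ, beside 17.2% of all genes, which is close to their share. Of these, ndhF was too dim to read.

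**Figure D5:**
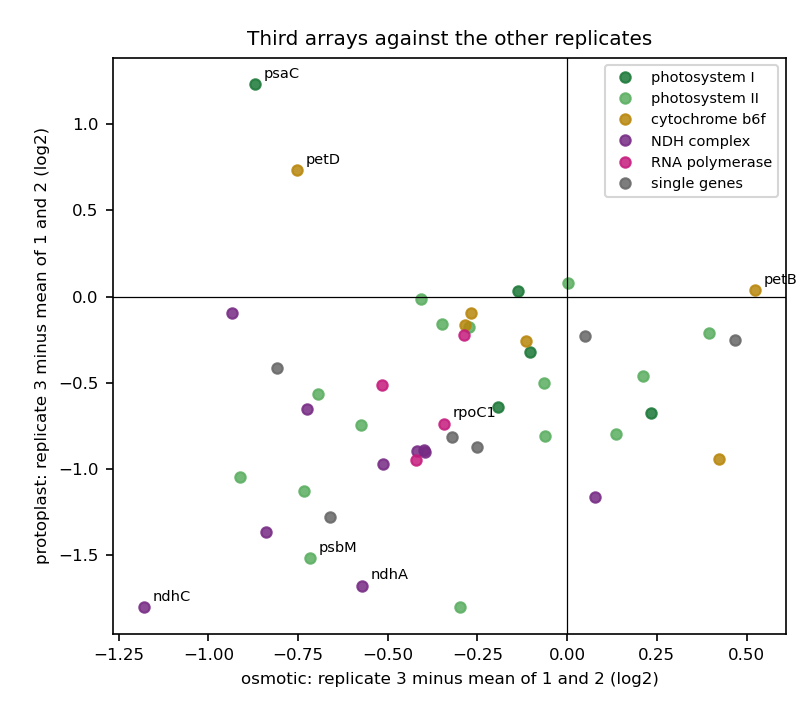
Log2 level on replicate 3 minus the mean of replicates 1 and 2, in the osmotic (x axis) and protoplast (y axis) groups, for the 46 plastid genes, coloured by class, with some named. Most points lie below 0 on both axes, ndhC farthest at -1.18 and -1.80, while psaC and petD lie below 0 in the osmotic and above 0 in the protoplast group.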

How the data were processed

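The authors deposited linear intensities, 1 per probe set and array, for 9 ATH1 arrays. Per the labels' protocols, 750 ng of total RNA per sample was labelled with a 3-prime kit. On every array the mean of the values, after trimming 2% at either end, came to 500, which points to 1 scaling factor per array, and their distributions were not equalised further. Which software summarised the probes was not found in the sources used here. With 3 arrays a group, their number sets the precision.

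Of 22810 probe sets, 13513 named 1 gene in the array annotation, which can be old, and gave 13356 genes, each read from its brightest probe set. The 46 plastid genes had 1 probe set each. All 9 arrays entered 1 model of log2(intensity + 16) by group in limma 3.58.1 (R 4.3.3) with empirical Bayes variances. P-values were adjusted by Benjamini-Hochberg over all genes within each of 3 comparisons, at a threshold of 0.05, and measure the spread between biological replicates. Deviations of same-numbered arrays from their group means correlated with r of 0.10, 0.18 and 0.31 between intact and osmotic cells, 0.19, 0.12 and 0.32 between osmotic cells and protoplasts, and 0.11, 0.02 and 0.15 between intact cells and protoplasts. Same-numbered arrays reached a minimum of 0.1 in the first and second of these, a rule on the data and not from the labels. Between different numbers r lay between -0.25 and 0.15, and the best match had the own number in 12 of 18 cases. Osmotic replicate 1 had 0.15 with intact replicate 2 and 0.10 with intact replicate 1. Protoplast replicate 2 had 0.15 with osmotic replicate 1 and 0.12 with osmotic replicate 2. Replicate 3 had values below 0 with every other number. Deviations sum to 0 within each group, so same-number values above 0 force some others below 0. Whether the numbers pair replicates 1 and 2 was not tested. The blocked value is given where it changes a call. The code was tested on simulated data. Tables and figures used Python 3.11.15, pandas 2.3.3 and matplotlib 3.10.9. Mitochondrial genes were matched by symbol.

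Members, gene lists and tests were chosen with earlier results of these data known. Values on every array were given for the 2 highest and 2 lowest changes in protoplasts and the brightest gene of each class, called genes and the single genes, and other genes were named after their values were seen. Alternatives were a replicate block, fits to 2 groups, 3 other scalings, a filter on dim genes, other uses of probe sets, pseudocounts of 1 and 64, a stricter threshold, another variance prior, array weights, leaving out each array and, added after the third arrays were seen, leaving out replicate 3 of every group.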

Additional observations from a re-analysis of the deposited data

How the results depend on the processing

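The call of petN in mannitol and against protoplasts held in all 21 refits that included it. Some of these could not alter its difference. Each of the 46 genes has 1 probe set, and leaving out an array of the third group does not change a difference. The filter on the dimmest 40% of genes removed 6 of the 46 genes, petN among them. Of 3156 values of single genes recomputed under 23 alternatives, 3064 kept their side of the threshold, 59 passed that had not and 32 no longer passed. Another 1 turned its direction and passed, ndhC in protoplasts against intact cells, with 0.64 without replicate 3 of every group. Most of these values had not passed as reported and some alternatives could not alter them, so the tally does not measure robustness. In mannitol the count of 1 lower gene became 2 with a pseudocount of 64 or array weights, where rpoB joined petN, and was 1 without any single array. Without the dimmest 40% of genes, where petN was left out, the 1 lower gene was rpoB, beside 9.61% of the genes kept. The median of -0.01 lay between -0.11 and 0.06 without single arrays and was -0.15 with centring on hybridisation controls. In protoplasts against intact cells the 1 higher gene became 3 with quantile normalization (17.3% of all genes higher) and 11 with median centring (24.5%). It became 0 with centring on hybridisation controls (11.5%) or at an adjusted p under 0.01. With a pseudocount of 64 or an intensity trend 2 were higher (15.8%). Without dim genes 2 were higher, psaA and psbK, beside 22.4% of the genes kept, and petD was left out by that filter. The count was 6 with array weights (17.9%), 8 without replicate 3 of every group (17.2%), and 0 to 4 without single arrays. The 1 lower gene became 0 with median centring, at an adjusted p under 0.01 and without replicate 3 of every group, and 0 to 1 without single arrays. The median of 0.21 was 0.53 with median centring and -0.11 with the control centring, and 0.10 to 0.38 without single arrays. In protoplasts against osmotic cells the 3 higher genes became 5 with the replicate block, 1 with only the 2 groups, with control centring or at an adjusted p under 0.01, 9 with median centring (20.3% of all genes), 7 with array weights (15.7%), 8 without replicate 3 of every group (14.7%), and 1 to 9 without single arrays, with 0 lower throughout. The median of 0.25 was 0.55 with median centring, 0.067 with control centring and 0.10 to 0.43 without single arrays. The causes were not tested. The replicate block added ndhG and psbM in protoplasts against osmotic cells and changed no other call among the 46 genes. Dim signals could not be told from background.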

Other observations

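Genes of the mitochondrial genome, the other organelle with its own messages, were measured on the same arrays, with 15 genes matched by symbol. A nuclear chromosome carries a copy of much of this genome, so their probe sets may read both. In mannitol 2 of 15 were lower, beside 3.76% of all genes. ccb206, a gene of cytochrome c maturation, read 1248, 791 and 1259 in intact cells, 413, 295 and 396 in osmotic cells and 719, 828 and 377 in protoplasts, so each osmotic value lay below the intact ones. It fell by 1.52 on the log2 scale, with an SE of 0.31 (limma adjusted p = 0.0215). nad2, a gene of respiratory complex I, read 31.2, 32.8 and 13.6 in intact cells, 1.75, 2.32 and 5.36 in osmotic cells and 16, 39.1 and 28.5 in protoplasts. It fell by 1.1 in mannitol with an SE of 0.26 (limma adjusted p = 0.0359), at a level that cannot be told from background. Against osmotic cells, nad2 was higher in protoplasts by 1.17 ± 0.26 (SE, limma adjusted p = 0.00569). None of the 15 passed in protoplasts against intact cells, beside 45.0% of all genes. The mitochondrial median in mannitol was -0.48. On the third arrays these genes ran against the plastid ones: replicate 3 minus the mean of replicates 1 and 2 had a median of 0.49 in osmotic cells and 0.42 in protoplasts on the log2 scale.

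The probe sets left out because they name both copies of a plastid gene gave for ycf1 an intensity of 5139.6 ± 697 in intact cells, 3927 ± 112 in osmotic cells and 5173 ± 1498 in protoplasts (SD, n = 3). ycf2 had 68.8 ± 20.6, 41.3 ± 16 and 62.1 ± 14.1 (SD, n = 3), and ndhB was too dim to read, with means from 12.8 to 21.3.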
